A study of Homo sapiens with 12 samples.

Results

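The genes described here are the 53 genes of the COPI and COPII machinery that carries cargo between the endoplasmic reticulum (ER) and the Golgi apparatus, among the 35337 genes of the expression table. They are the coat subunits, the proteins that organise ER exit sites, the transcription factor CREB3L2, the ARF GTPases, the p24 cargo proteins, the KDEL receptors, the lectin cargo receptors, the Golgi tethers and stacking proteins, and the ER-Golgi SNAREs. All 53 were chosen by function, with earlier results of these data known. They were followed in EndoC-βH3 cells, a human beta-cell line established from fetal pancreas and immortalised with hTERT and the SV40 large T antigen, both of which an inducible CreER recombinase can excise. The 6 senescent samples were cells in which 3 weeks of 4-hydroxytamoxifen had activated CreER, and the 6 non-senescent samples were cells of the same line left untreated. Senescence, loss of the immortalising genes and exposure to the drug cannot be told apart in this design, and all samples come from 1 line. Titles carry a batch letter, with 2 samples per group in batch A and 4 per group in batch B. RNA was read at its 3′ end by CEL-seq2, and a normalised read count is the number of reads of a gene divided by 1 size factor per library. Values in bulk RNA cannot tell fewer expressing cells from less RNA per cell.

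In the secretory pathway, the GTPase SAR1 recruits the SEC23-SEC24 inner coat and the SEC13-SEC31 outer coat to ER exit sites, where SEC24 and cargo receptors select proteins for COPII vesicles. COPI coats, loaded onto Golgi membranes by ARF GTPases, return escaped ER residents and receptors. Tethers and SNAREs then dock and fuse the vesicles. Beta cells send large amounts of proinsulin along this route, and CREB3L2 is a membrane-bound bZIP transcription factor known for driving genes of the COPII machinery in secretory cells.

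The 5′ flanks of these genes are shown first because many hold the same short letters. Promoter windows from RefSeq (GRCh38.p14, from 250 bases before to 50 bases after each annotated start, 64 windows) were found for 47 of the 53 genes. Both strands were searched for the bZIP core ACGTG, for the Golgi stress element ACGTGGC, which contains that core, for the ER stress response element (CCAAT, 9 unspecified bases, CCACG) and for ERSE-II (ATTGG, 1 base, CCACG). The 100 bases before the start are printed 5′ to 3′ on the strand of the gene, with matches in capitals. A match on the opposite strand reads GCCACGT or CACGT. The first set shows genes of different roles with the Golgi stress element.
SEC31A (chr4:82900570-82900669, minus strand): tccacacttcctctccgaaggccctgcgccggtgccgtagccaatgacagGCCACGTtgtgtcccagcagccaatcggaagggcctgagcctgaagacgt
SEC24C (chr10:73744272-73744371, plus strand): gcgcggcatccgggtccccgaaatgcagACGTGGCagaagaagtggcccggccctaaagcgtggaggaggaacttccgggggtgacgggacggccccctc
TMED2 (chr12:123584452-123584551, plus strand): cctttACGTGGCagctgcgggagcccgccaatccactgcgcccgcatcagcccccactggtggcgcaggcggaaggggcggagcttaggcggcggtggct
ARCN1 (chr11:118572309-118572408, plus strand): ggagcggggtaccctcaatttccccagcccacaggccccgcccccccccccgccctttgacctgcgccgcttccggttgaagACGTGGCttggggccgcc
ARF1 (chr1:228082608-228082707, plus strand): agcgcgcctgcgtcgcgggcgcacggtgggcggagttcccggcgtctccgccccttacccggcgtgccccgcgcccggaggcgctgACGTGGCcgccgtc
SEC22A (chr3:123201843-123201942, plus strand): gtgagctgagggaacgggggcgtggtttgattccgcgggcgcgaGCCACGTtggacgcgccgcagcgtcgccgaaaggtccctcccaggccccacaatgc
The second set holds called genes and TMED10. MIA3 has a core without the longer element, TMED10 has a core on both strands in the palindrome CACGTG, and the stretches of SAR1B and CREB3L2 hold none of the searched letters.
MIA3 (chr1:222644229-222644328, plus strand): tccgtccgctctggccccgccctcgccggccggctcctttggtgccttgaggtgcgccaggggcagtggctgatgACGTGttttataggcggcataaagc
TMED10 (chr14:75176613-75176712, minus strand): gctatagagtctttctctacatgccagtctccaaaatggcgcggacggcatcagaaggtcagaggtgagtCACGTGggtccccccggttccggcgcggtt
SAR1B (chr5:134632829-134632928, minus strand): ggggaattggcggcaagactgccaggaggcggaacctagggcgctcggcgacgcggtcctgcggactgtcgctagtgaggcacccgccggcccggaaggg
CREB3L2 (chr7:138002087-138002186, minus strand): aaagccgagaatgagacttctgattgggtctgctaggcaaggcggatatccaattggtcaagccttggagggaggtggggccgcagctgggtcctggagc
The listed RefSeq starts of MIA3, SAR1B and SEC31A lie inside the gene, downstream of its outermost start in GENCODE v44. The stretches of SEC31A (THAP9-AS1), TMED2 (TMED2-DT), SEC24C and TMED10 also meet exons of other genes. At the downstream end, 26 bases of the MIA3 stretch, 19 of TMED2, 19 of ARCN1 and 16 of SEC22A lie in exons of longer or earlier-starting transcripts of the same gene in that annotation. The core was found in 31 of the 47 genes (66.0%), against 31.8% of 10388 tested genes with a window and 24.9% of all 27305 genes with one. The Golgi stress element was found in 19 of 47 (40.4%), against 5.46% of tested genes and 3.95% of all genes. With only the first window of each gene, the shares were 63.8% against 26.1% of tested genes for the core and 40.4% against 4.28% for the longer element. The ER stress response element and ERSE-II were found in 0 of the 47, and in 0.0916% and 0.0696% of all genes. A match describes letters in a window and is not a bound site.

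**Figure D1:**
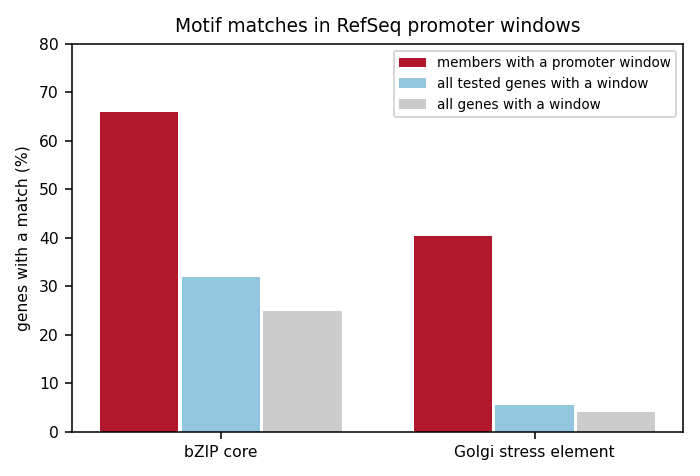
Share of genes (vertical axis, percent) with at least 1 match on either strand of their RefSeq promoter windows, for the bZIP core ACGTG and the Golgi stress element ACGTGGC. Red bars are the 47 trafficking genes with a window, blue bars the 10388 tested genes and grey bars all 27305 genes. The trafficking genes stand at 66.0% and 40.4%.

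Split by these matches, the 29 tested genes with the core had a median log2 fold change in senescent cells of 0.28, ranging from -0.19 to 1.31, and the 16 without it had a median of 0.15, ranging from -0.41 to 1.16. Higher at an adjusted p under 0.1 were 15 of 29 with the core and 4 of 16 without it, and 1 and 2 of these were called. For the Golgi stress element the counts were 8 of 17 with it and 11 of 28 without, of which 0 and 3 were called, and the medians were 0.28 and 0.20. Over all tested genes, with or without a match, 23.2% were higher at an adjusted p under 0.1 and 11.6% were called higher. Separate shares for all tested genes that hold or lack a match were not computed. USO1, a called gene, had no window and is in neither split. These splits were not tested.

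Of the 53 genes, 51 reached a mean of 5 normalised reads over the 12 libraries and were tested. SEC16B, an ER exit site scaffold, had 6 reads over all non-senescent and 42 over all senescent libraries, at most 11 in any library. Its last exon overlaps CRYZL2P-SEC16B on the same strand. COPZ2, a minor zeta subunit of COPI, had 2 reads in all and reached 2 in 1 non-senescent library. Calls needed both a fold change over 1.5 and a Benjamini-Hochberg adjusted p under 0.1 among all 13847 tested genes. CREB3L2, USO1, MIA3 and SAR1B rose, which is 4 of 51 (7.84%), beside 11.6% of all tested genes called higher. Called lower were 0 of 51, beside 11.8% of all tested genes, and edgeR and DESeq2 on recovered reads also called 0 lower. At an unadjusted p under 0.05, 3 genes were lower.

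Most of what passed the adjusted p lay under the fold limit. At an adjusted p under 0.1 and any fold, 21 of 51 (41.2%) were higher, beside 23.2% of all tested genes, and 3 of 51 (5.88%) were lower, beside 22.3%. Senescent libraries were entirely above non-senescent libraries within both batches for 14 genes (27.5%, beside 11.9% of all tested genes) and entirely below for 1 gene, LMAN2 (beside 11.9%). The log2 fold change was positive for 39 of 51 genes, with a median of 0.20 against 0.01 over all tested genes. Its median standard error was 0.09, against 0.16 over all tested genes. Scaling all libraries to the same total moved the median of all tested genes to -0.09 and that of the trafficking genes to 0.10. Such a change of scale adds nearly the same amount to the log2 fold change of every gene. The gap between the 2 medians (0.19 under both scalings) therefore could hardly change. With same-total scaling 16 trafficking genes were higher and 5 lower at an adjusted p under 0.1. The shares of all tested genes at this limit were not computed for that scaling, so 23.2% and 22.3% are not their background. Calls over all tested genes were then 1225 higher and 2092 lower, against 1605 and 1632 with the deposited scaling.

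**Figure D2:**
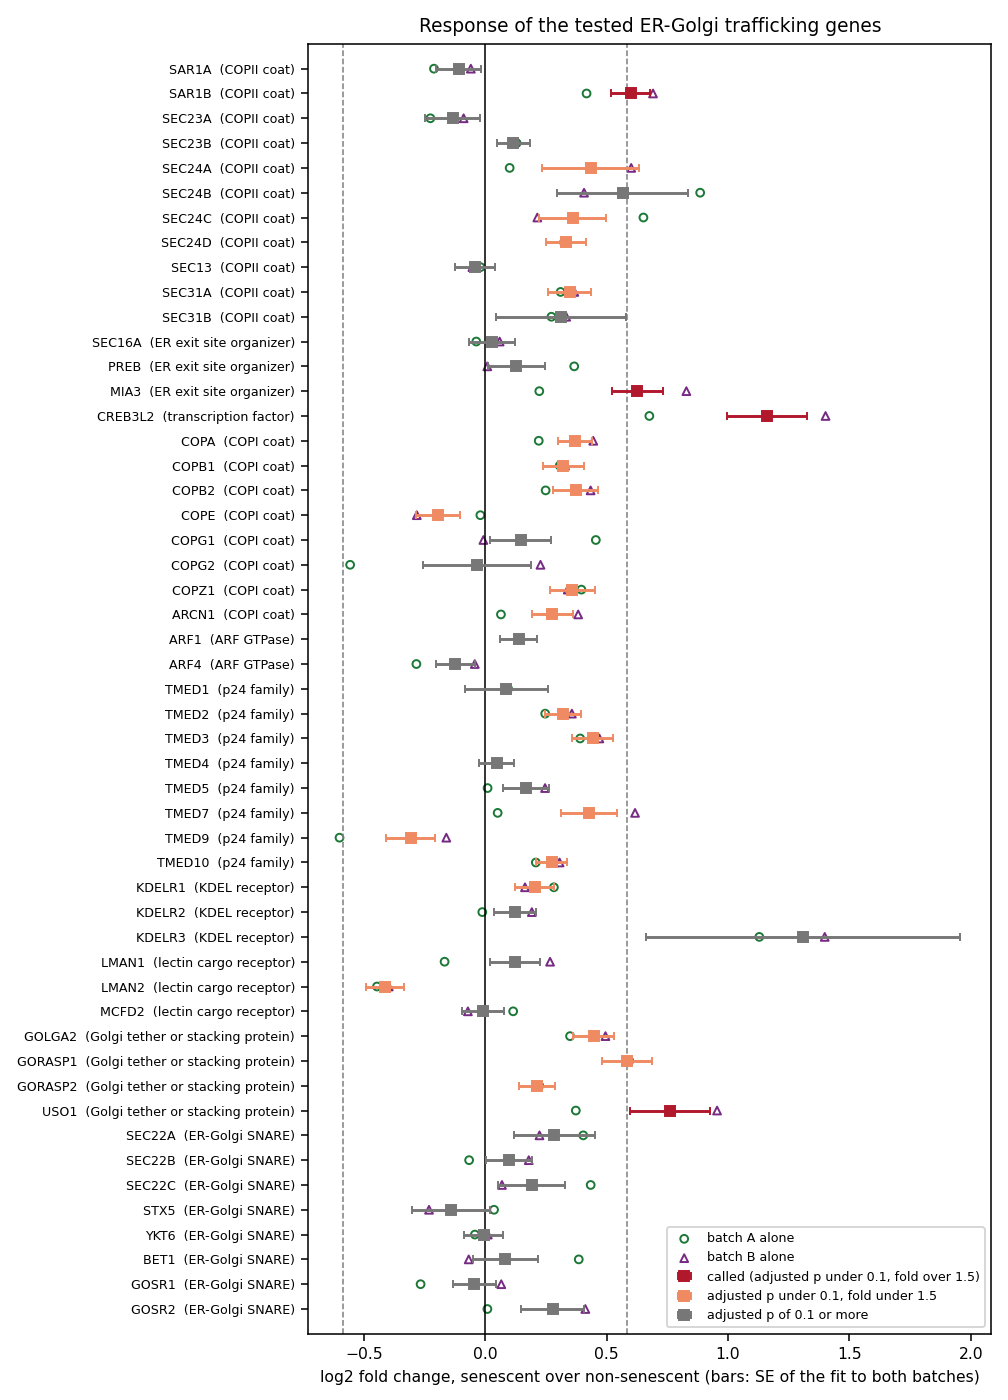
Log2 fold change of senescent over non-senescent cells (horizontal axis) for each of the 51 tested genes, grouped by role. Squares are the fit to both batches with its SE, circles batch A alone and triangles batch B alone, and dashed lines mark the 1.5-fold limit. CREB3L2, USO1, MIA3 and SAR1B (red) lie beyond the limit, and KDELR3 (1.31 on this scale, not called) has the widest bar.

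Libraries held 4672924 to 17106776 reads, with 8873569 or more in batch A and 7063264 or fewer in batch B. The 10 beta-cell markers were all detected, and their summed reads were 73540 to 90970 ppm of reads in non-senescent and 86220 to 115200 ppm in senescent libraries. Markers of alpha, delta and PP cells summed to 30200 to 57760 and 38200 to 45990 ppm, with PPY at no more than 3 reads in every library. Within that sum GCG (log2 fold change -1.30), SST (-0.64) and HHEX (-0.74) were called lower and TTR (1.59) was called higher. The 6 acinar markers summed to 4.85 to 8.19 ppm in non-senescent and 18.8 to 34.6 ppm in senescent libraries, with PRSS1, CELA3A, PNLIP and CEL at no more than 3 reads in every library. The 4 duct markers summed to 34.4 to 53.9 and 10.2 to 21.8 ppm. The 6 mesenchymal markers reached at most 25.04 ppm and the 6 endothelial and immune markers at most 8.70 ppm, with PDGFRB, THY1, VWF and CDH5 at no more than 3 reads in every library. The part of these markers in the results below was not tested.

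CREB3L2 (chr7:137874979-138002086, minus strand, 12 exons) rose most among the called genes. Its normalised read counts were 96.7 and 107 in the non-senescent libraries of batch A and 166 and 159 in the senescent ones. In batch B they were 55.7, 63.3, 54.1 and 43.5 against 149, 104, 156 and 176. All senescent libraries lay above the non-senescent ones of their batch, although the lowest of batch B (104) lay below the highest non-senescent library of batch A (107). The log2 fold change was 1.16 ± 0.16 (SE, n = 6 per group, limma adjusted p 2.56e-05). Batch A alone gave 0.68 and batch B alone 1.40, which did not pass the test of a difference between batches (adjusted interaction p 0.252). CREB3L2 was called under all 26 alternative settings run.

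Over all tested genes 11.6% were called higher, and 23.2% passed an adjusted p under 0.1 upward and 22.3% downward. Among the 11 COPII coat genes, all tested, 1 was called higher, 5 passed an adjusted p under 0.1 upward and 0 downward, and the median log2 fold change was 0.33. SAR1B (chr5:134601149-134649271, minus strand, 7 exons), the SAR1 isoform known for chylomicron export from the intestine, was the called one. It stood at 688 and 668 in non-senescent and 849 and 965 in senescent libraries of batch A. In batch B it stood at 642, 602, 662 and 731 against 1103, 1127, 1103 and 927. No senescent library overlapped a non-senescent one, also across batches. The fold change was 1.52 (log2 0.60 ± 0.08 SE, adjusted p 1.47e-05), with log2 values of 0.42 in A and 0.69 in B. This fold lies just above the limit, and the call was lost when non-senescent B1 (0.58), non-senescent B2 (0.56), senescent B1 (0.58), senescent B2 (0.57) or senescent B3 (0.57) was left out, with same-total scaling (0.49) and in batch A alone, at adjusted p of no more than 0.00539.

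The inner coat subunit SEC24D, a cargo adaptor, had 724 and 722 normalised read counts in non-senescent against 967 and 848 in senescent batch A libraries, and 684 to 900 against 873 to 1094 in batch B. Its groups overlapped in batch B only, and the log2 difference came to 0.33 ± 0.08 (SE, adjusted p 0.00443). SEC31A, of the outer coat, had 444 and 518 against 622 and 569 in batch A and 414 to 583 against 585 to 640 in batch B, with no overlap in either batch (log2 0.35 ± 0.09, adjusted p 0.00501). The adaptors SEC24C (0.36, adjusted p 0.0463) and SEC24A (0.43, adjusted p 0.0956) also passed the adjusted p, with groups that overlapped within batch B for SEC24C and within both batches for SEC24A. The last exon of SEC24C overlaps another gene on the opposite strand. SEC23B, the GTPase-activating inner subunit, had 1090 and 1232 against 1275 and 1260 in batch A, and 503 to 594 against 548 to 631 in batch B. That was a log2 fold change of 0.12 ± 0.07 with an adjusted p of 0.2. The remaining COPII genes, SAR1A, SEC23A, SEC24B, SEC13 and SEC31B, had log2 fold changes from -0.13 to 0.57 and did not pass. SEC24B, the 0.57, was called without non-senescent B1 or without senescent B4. Batch A alone also called SEC24B (0.89) and SEC24C (0.65), and batch B alone SEC24A (0.60).

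**Figure D3:**
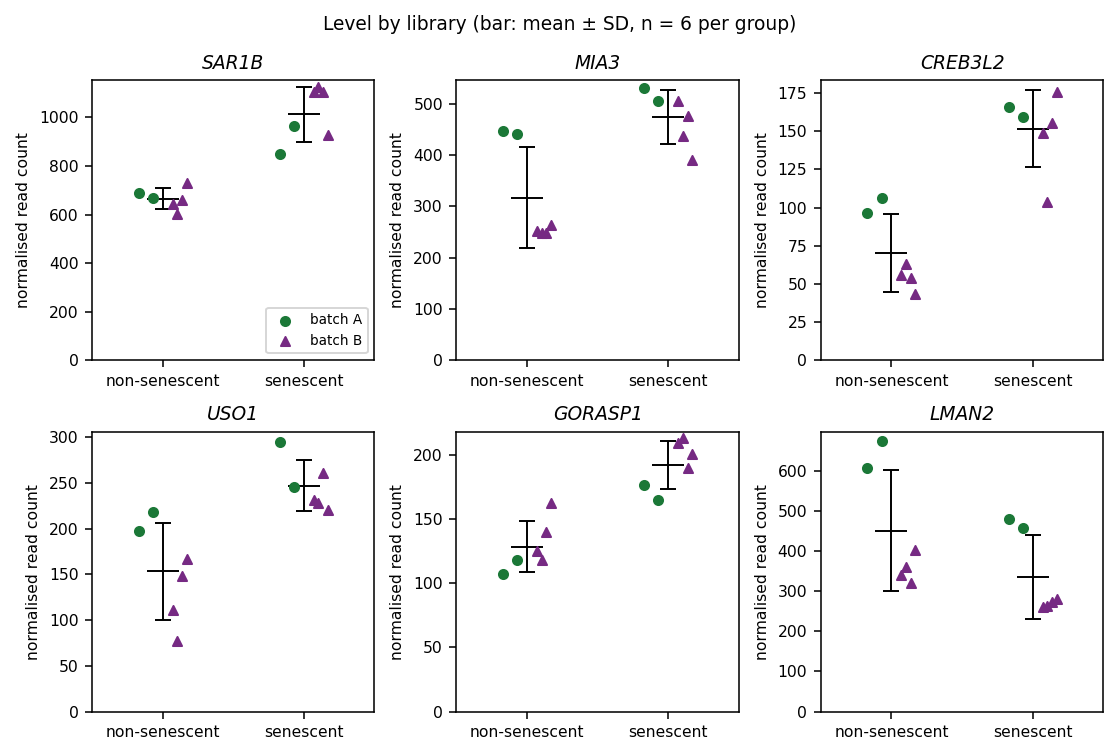
Normalised read count (vertical axis, from 0) in each library of the 4 called genes and of GORASP1 and LMAN2. Circles are batch A and triangles batch B, and bars give the mean ± SD over 6 libraries per group. MIA3 and CREB3L2 start lower in batch B than in batch A, while SAR1B starts alike in both.

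Of the ER exit site organizers, MIA3 (chr1:222618097-222668007, plus strand, 28 exons), also called TANGO1, is known for loading procollagen and other bulky cargo into COPII carriers. MIA3 had 447 and 441 normalised read counts in non-senescent and 531 and 506 in senescent libraries of batch A. In batch B it had 253, 248, 248 and 265 against 507, 438, 476 and 391. The groups were apart within both batches, but non-senescent libraries of batch A overlapped senescent libraries of batch B. Over both batches the log2 change was 0.63 ± 0.11 (SE, adjusted p 1.47e-04). MIA3 was the only 1 of the 51 genes (1 of 51, beside 4.21% of all tested genes) whose response differed between batches, at 0.22 in batch A against 0.83 in B (interaction adjusted p 0.0619). Without senescent B1 the log2 fold change was 0.57 and the call was lost, as it was with same-total scaling (0.52) and in batch A alone. The interaction no longer passed when any single library of batch A was left out.

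SEC16A, the main exit site scaffold, had 484 and 465 against 426 and 502 in batch A and 216 to 291 against 230 to 293 in batch B, a log2 fold change of 0.03 ± 0.09 (adjusted p 0.848). PREB (SEC12), which loads GTP onto SAR1, had 215 and 191 against 272 and 251 in batch A but 101 to 146 against 109 to 132 in batch B, or 0.13 ± 0.12 (adjusted p 0.422). The last exon of PREB overlaps ABHD1 on the opposite strand. The groups of both genes overlapped in batch B.

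In the COPI coat, 5 of 8 tested subunits were higher and 1 was lower at an adjusted p under 0.1, beside 23.2% and 22.3% of all tested genes. None lay beyond the fold limit, and the median log2 fold change was 0.30. COPA, the alpha subunit, had 1124 and 1074 against 1282 and 1279 in batch A and 1563 to 1882 against 2155 to 2465 in batch B, without overlap (log2 0.37 ± 0.07, adjusted p 3.94e-04). The delta subunit ARCN1 had 1069 and 1264 against 1207 and 1225 in batch A, and 891 to 1133 against 1203 to 1429 in batch B (0.28 ± 0.08, adjusted p 0.0146). Its groups were apart in batch B only. COPE, the epsilon subunit that stabilises COPA, was lower instead, with 552 and 428 against 475 and 484 in batch A and 933 to 1242 against 805 to 960 in batch B. Its log2 fold change was -0.19 ± 0.09 (adjusted p 0.0964), and its groups overlapped in both batches. Batch A gave -0.02 and batch B -0.28. The limma adjusted p did not pass without the filter on low values (0.148) or without the intensity trend (0.167), and was 0.00981 with same-total scaling. COPB1 (0.32), COPB2 (0.37) and COPZ1 (0.36) were higher, with adjusted p from 0.00387 to 0.00602, while COPG1 (0.15) and COPG2 (-0.03), the gamma subunits, did not pass. The last exons of COPB2 (MRPS22), COPG2 (MEST) and COPG1 (an unnamed gene) overlap a gene on the opposite strand.

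Neither ARF GTPase passed the test. ARF1, which recruits COPI, had 469 and 557 against 560 and 562 in batch A and 404 to 461 against 462 to 527 in batch B. Its groups did not overlap within a batch, but the log2 fold change was 0.14 ± 0.08 (adjusted p 0.162). ARF4 had 614 and 710 against 546 and 539 in batch A and 444 to 538 against 441 to 496 in batch B (-0.12 ± 0.08, adjusted p 0.249). ARF4 was apart in batch A and overlapped in batch B.

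The p24 proteins are transmembrane cargo adaptors that cycle between ER and Golgi. Of the 8 genes, all tested, 4 were higher and 1 was lower at an adjusted p under 0.1, beside 23.2% and 22.3% of all tested genes. None was called. TMED10 had 1362 and 1268 against 1510 and 1527 in batch A and 717 to 783 against 848 to 981 in batch B, without overlap (0.27 ± 0.06, adjusted p 0.00232). TMED9 was lower, at 712 and 870 against 565 and 477 in batch A and 734 to 1037 against 727 to 771 in batch B. Its log2 fold change was -0.31 ± 0.10 (adjusted p 0.0237). Batch A alone gave -0.60, which would be called, and batch B, where the groups overlapped, gave -0.16. TMED4 had 922 and 986 against 943 and 1035 in batch A and 945 to 1224 against 1022 to 1164 in batch B, or 0.05 ± 0.07 (adjusted p 0.64). TMED2 (0.32), TMED3 (0.44) and TMED7 (0.43) were higher, with adjusted p from 4.74e-04 to 0.00725. TMED7 reads share their last exon with the read-through gene TMED7-TICAM2 on the same strand, and in batch A the TMED7 groups overlapped. Batch B alone called TMED7 (0.62).

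KDEL receptors return ER chaperones from the Golgi. KDELR1 had 615 and 741 against 801 and 842 in batch A and 1211 to 1467 against 1341 to 1734 in batch B (0.20 ± 0.08, adjusted p 0.0513). It was apart in batch A and overlapped in batch B. KDELR2 had 570 and 559 against 568 and 551 in batch A and 363 to 479 against 460 to 546 in batch B (0.12 ± 0.09, adjusted p 0.276). KDELR3, read at a few normalised counts, had 2.78 and 0.795 against 4.04 and 5.44 in batch A. In batch B it had 1.51, 15.1, 27.8 and 0 against 19.4, 9.45, 20.6 and 11.2. On the log2(value + 1) scale the fold change of KDELR3 was 1.31 ± 0.65, but its groups overlapped in batch B and the adjusted p was 0.123, or 0.0691 without non-senescent B2 and 0.0272 without non-senescent B3, where it would be called. The size depended on the pseudocount and the tool: it was 2.08 at a pseudocount of 0.1, 0.47 at a pseudocount of 8, 0.66 with edgeR and 0.71 with DESeq2, and leaving out 1 library gave 0.76 to 1.78. The last exon of KDELR3 overlaps DDX17 on the opposite strand.

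Lectin cargo receptors bind the sugars of glycoproteins. LMAN2 (chr5:177315805-177351840, minus strand, 8 exons), known as VIP36, had 605 and 675 against 480 and 458 in batch A. In batch B it had 339, 361, 320 and 403 against 259, 262, 272 and 282. Every senescent library lay below the non-senescent ones of its batch, and the log2 fold change was -0.41 ± 0.08 (adjusted p 5.00e-04), where batch A alone gave -0.45 and batch B -0.40. LMAN1, the ERGIC-53 receptor for coagulation factors, had 482 and 428 against 443 and 370 in batch A and 558 to 695 against 654 to 879 in batch B (0.12 ± 0.10, adjusted p 0.377). MCFD2, the soluble partner of LMAN1, had 1040 and 912 against 1104 and 1008 in batch A and 501 to 640 against 484 to 601 in batch B, with a log2 fold change of -0.01 ± 0.09 (adjusted p 0.946). Both overlapped within both batches.

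All 4 Golgi tethers and stacking proteins were higher at an adjusted p under 0.1, beside 23.2% of all tested genes. Their median log2 fold change was 0.52. USO1, the p115 tether that captures ER-derived vesicles, rose from 197 and 219 to 295 and 246 in batch A. In batch B the levels were 111, 77.1, 148 and 167 against 232, 228, 261 and 221. No senescent library overlapped a non-senescent one across both batches, with 219 the highest non-senescent and 221 the lowest senescent value. The log2 fold change was 0.76 ± 0.16 (adjusted p 0.00135). Batch A alone gave 0.37, under the limit, and batch B 0.95 (interaction adjusted p 0.428). GORASP1 (GRASP65), which stacks cis-Golgi cisternae, had 107 and 118 against 176 and 165 in batch A and 125, 118, 140 and 163 against 210, 213, 190 and 201 in batch B. It also had no overlap across batches. Its log2 fold change of 0.58 ± 0.10 (adjusted p 2.46e-04) lay under the limit of 0.585, next to SAR1B at 0.60 just above it, and GORASP1 was called under 10 of 26 alternatives, among them those without non-senescent A2, B3 or B4 or without senescent A2, B3 or B4 (up to 0.64). The last exon of GORASP1 overlaps WDR48 on the opposite strand.

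GOLGA2 (GM130), the cis-Golgi receptor of p115, had 210 and 232 against 284 and 279 in batch A and 400 to 557 against 658 to 671 in batch B, without overlap (0.45 ± 0.08, adjusted p 4.18e-04). GORASP2 (GRASP55), of the medial Golgi, had 432 and 489 against 567 and 507 in batch A and 622 to 765 against 763 to 842 in batch B (0.21 ± 0.07, adjusted p 0.0281), and overlapped in batch B alone. Of the 8 SNAREs, the fusion proteins of this step, 0 passed an adjusted p of 0.1 in limma, beside 23.2% higher and 22.3% lower over all tested genes. Only 1, GOSR2, had an unadjusted p under 0.05, and its last exon overlaps another gene on the same strand. The SNAREs had a median log2 fold change of 0.09 and a range from -0.14 to 0.28. The difference between the tethers and the SNAREs was not tested. YKT6, whose last exon overlaps CAMK2B on the opposite strand, had 1421 and 1235 against 1317 and 1256 in batch A and 1100 to 1261 against 1046 to 1359 in batch B (-0.01 ± 0.08, adjusted p 0.956). SEC22B had 792 and 906 against 803 and 815, and 609 to 845 against 689 to 912 (0.10 ± 0.10, adjusted p 0.45). GOSR1 had 406 and 364 against 329 and 310, and 517 to 673 against 546 to 612 (-0.04 ± 0.09, adjusted p 0.736). In batch B all 3 SNAREs overlapped.

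Related genes that share a function could be compared within a library, as the ratio of their normalised read counts with 1 added to each. For genes with many reads the added 1 is small beside the value, but the ratios of the KDELR3 pairs depend on it (KDELR2 to KDELR3 was -1.95 at a pseudocount of 0.1 and -0.35 at 8). Of 17 pairs listed, 15 had both genes past the filter. The log2 ratio of SAR1A to SAR1B fell from -0.72 and -0.67 to -1.30 and -1.35 in batch A. In batch B it fell from -1.36, -1.001, -1.20 and -1.28 to -2.15, -2.06, -1.77 and -1.86, a mean difference of -0.71 within batches. The ratio of LMAN1 to LMAN2 went from -0.33 and -0.65 to -0.12 and -0.31 in batch A and from 0.47 to 0.94 up to 1.26 to 1.64 in batch B, a difference of 0.54. For GORASP1 to GORASP2 the difference was 0.37 in both batches. These 3 pairs did not overlap within either batch and reached 0.00476, the smallest two-sided p that an exact permutation of labels inside the batches can give with 420 arrangements. ARF1 to ARF4 differed by 0.26 (exact permutation p 0.0238), with overlap in batch B. The other 11 pairs, among them TMED2 to TMED10 (0.05), SEC31A to SEC31B (0.04) and SEC24C to SEC24D (0.03), had exact p from 0.0524 to 0.943. SEC23A to SEC23B (-0.25) was under 0.05 without non-senescent B3 or B4, and KDELR2 to KDELR3 (-1.18) without non-senescent B3. All p-values of pairs are unadjusted, and the SAR1, LMAN and GORASP differences include genes already described as changed.

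**Figure D4:**
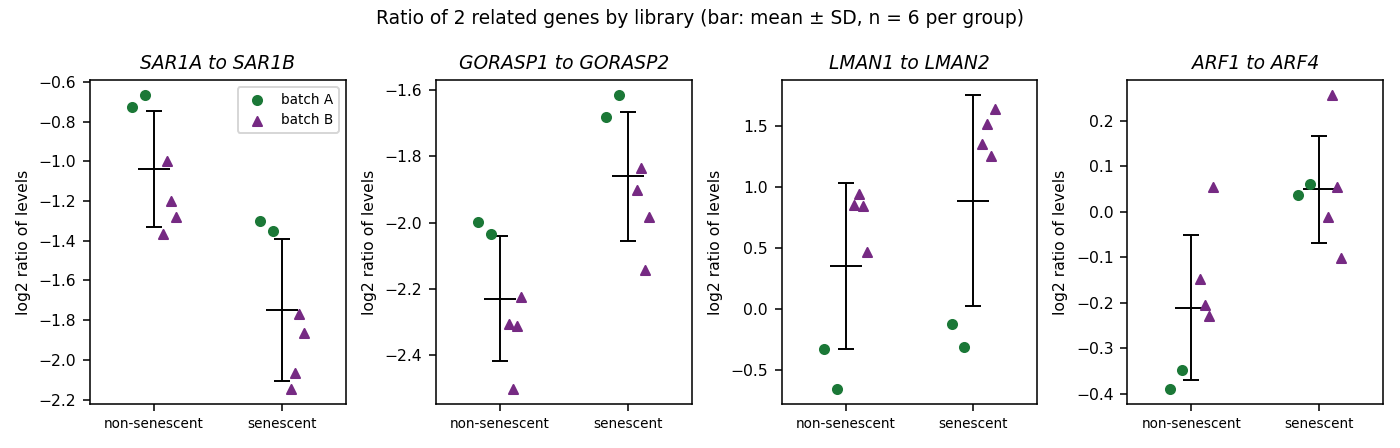
Log2 ratio of the normalised read counts of related genes (vertical axis) in each library, for the 4 pairs with an exact p under 0.05. Circles are batch A, triangles batch B, and bars the mean ± SD over 6 libraries per group. Within each batch the groups are apart for SAR1A to SAR1B, GORASP1 to GORASP2 and LMAN1 to LMAN2, while ARF1 to ARF4 overlaps in batch B.

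For most of these genes the level differed more by batch than by senescence. The batch difference was the log2 ratio of the non-senescent batch means, without an added 1. Its size exceeded that of the fitted senescence change for 39 of 51 genes, with median sizes of 0.56 and 0.27. The same count was not made over all tested genes, so it describes no trait particular to these genes. The batch B over batch A level ranged from -1.49 (TMED3) to 2.63 (KDELR3) in log2, and 7 genes differed by more than 1. Among these, COPE, KDELR1, GOLGA2 and TMED2 were higher in batch B, and SEC23B was lower. The sign of the senescence change was the same in both batches for 40 of 51 genes, beside 9765 of all 13847 tested genes. It was the same for 11 of 11 COPII coat genes, 8 of 8 p24 genes and 3 of 8 SNAREs. The median change came to 0.21 for batch A and 0.22 for batch B.

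**Figure D5:**
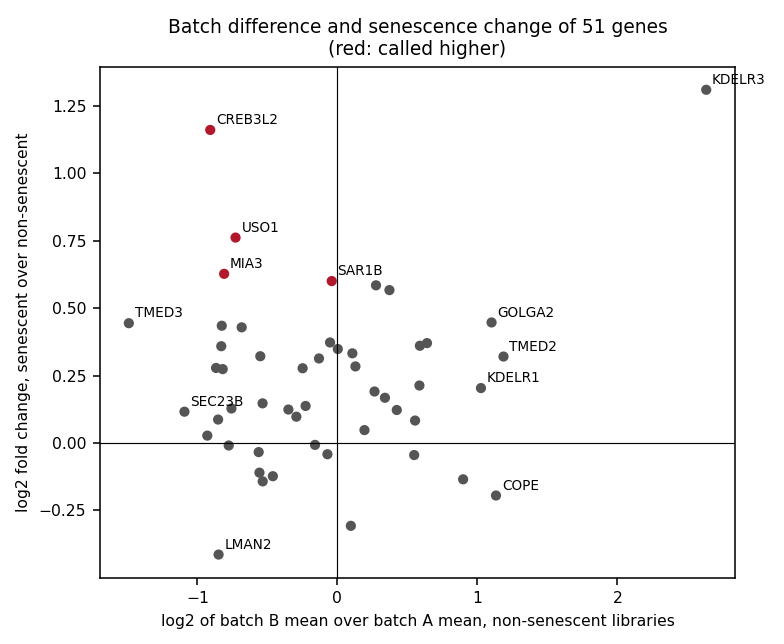
Log2 of the batch B over the batch A mean in non-senescent libraries (horizontal axis) against the log2 fold change with senescence (vertical axis), 1 point per gene for the 51 tested genes, with called genes in red. Points spread from -1.49 to 2.63 along the batch axis, and CREB3L2, USO1 and MIA3 lie to the left of 0.

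Levels of the coat were also set beside insulin mRNA, which encodes 1 of the secreted cargoes of these cells. INS reads per read of the 11 COPII coat genes summed were 6.24 to 8.31 in non-senescent and 33.9 to 38.3 in senescent libraries of batch A, and 3.12 to 4.604 and 11.1 to 16.1 in batch B. The summed COPII coat itself was 1.16 times its non-senescent level in batch A and 1.22 times in batch B, and the summed COPI coat 1.15 and 1.20 times. As a share of all reads the changes were smaller, with log2 values of 0.08 in batch A and 0.20 in batch B for COPII and of 0.06 and 0.17 for COPI.

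Other genes of the pathway were taken from lists chosen by function, with earlier results of these data known. They were 78 helpers, tethers, SNAREs and regulators, of which 74 were tested. Of these, 11 (14.9%) were called higher, near the 11.6% of all tested genes, and 3 were called lower, beside 11.8%. At an adjusted p under 0.1 and any fold, 30 (40.5%) were higher, beside 23.2% of all tested genes, and 8 (10.8%) were lower, beside 22.3%. The median log2 fold change of these genes was 0.21. Of 15 COPII and cargo helpers 3 were called higher and 2 lower, of 32 Rab, TRAPP, COG and golgin tethers 5 and 0, of 10 ER-side SNAREs and NRZ tether subunits 2 and 0, of 9 transcriptional regulators 1 and 1, and of 8 COPI and ARF helpers 0 and 0. By the rule for named genes, the largest rises follow.

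ATF6, an ER stress sensor that becomes a transcription factor at the Golgi, had 226 to 231 against 451 to 494 normalised read counts in batch A and 302 to 389 against 645 to 833 in batch B (log2 1.09 ± 0.09, adjusted p 3.33e-08). NBAS, of the tether that receives COPI vesicles at the ER, had 128 to 134 against 248 to 262 and 57.2 to 78.3 against 134 to 161 (0.99 ± 0.11, adjusted p 2.18e-06). TMED6, a p24 protein known from islets, had 136 to 142 against 294 to 297 and 124 to 167 against 247 to 294 (0.98 ± 0.10, adjusted p 5.17e-07). These 3 genes rose without overlap in either batch. The golgin GOLGB1 (giantin), a partner of p115, had 365 to 374 against 446 to 496 in batch A and 152 to 273 against 458 to 613 in batch B (0.99 ± 0.16, adjusted p 1.32e-04). Its response differed between batches, 0.35 in batch A against 1.32 in B (interaction adjusted p 0.0687). COG5, of the COG tether, had 69.1 to 78.4 against 92.4 to 104 in batch A and 34.4 to 52.6 against 80.1 to 115 in batch B. It had a log2 fold change of 0.81 ± 0.16 (adjusted p 7.44e-04), and its last exon overlaps HBP1 on the opposite strand.

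The falls were CREB3L4, CNIH4 and PEF1. CREB3L4, a relative of CREB3L2, had 33.4 to 39.5 against 22.4 to 26.5 in batch A and 39.9 to 65.8 against 16.8 to 26.7 in batch B (-0.94 ± 0.20, adjusted p 0.00129). Its last exon overlaps JTB on the opposite strand. CNIH4, a cornichon cargo receptor, had 203 to 222 against 142 to 159 and 137 to 179 against 67.3 to 112 (-0.67 ± 0.14, adjusted p 8.75e-04). PEF1, a calcium-binding regulator of SEC31 ubiquitination, had 159 to 174 against 137 to 158 and 302 to 342 against 140 to 233 (-0.61 ± 0.14, adjusted p 0.0021). All 3 were apart within both batches. The call of PEF1 was lost without non-senescent B1, non-senescent B3, senescent B1 or senescent B2 (as small as -0.51). Batch A alone gave PEF1 -0.18 (adjusted p 0.311) against -0.83 in batch B alone. The call of CNIH4 was lost without senescent B4 (-0.58). Batch A alone also lost the calls of CNIH4 (-0.49), CREB3L4 (-0.56), COG5 (0.41) and GOLGB1 (0.35).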

How the data were processed

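CEL-seq2 libraries of EndoC-βH3 poly(A) RNA were made from 12 samples, 6 per group. Groups, batches and replicate numbers came from the labels, and each column of the table matched 1 sample by its name. Nothing in the labels says that replicates were separate cultures, so p-values may measure technical spread.

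Per the labels and the methods, the authors used Cutadapt for trimming, Salmon 0.13.1 with GRCh38 for quantification and DESeq2 for normalisation, with a correction for batch in their comparison. The annotation and the handling of molecular identifiers and of strand are not given in the sources used here. The deposited values are a signal, reads divided by 1 size factor per library, and 100% of 196021 non-zero values were whole multiples of the smallest of their column (tolerance 0.001), from which whole reads were recovered. Deposited fold changes and p-values of the authors' own comparison, with their errors and test statistic, were not used. Salmon divides reads among similar transcripts, so genes with near-identical copies, such as SEC22B and TMED10, are uncertain.

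limma 3.58.1 in R 4.3.3 was run with an intensity trend on log2(normalised read count + 1), with batch and group as terms, for 13847 genes with a mean of at least 5. Fold changes are on this log2(value + 1) scale, on which those of low genes depend on the added 1: the scale usually understates them, but where single libraries are near 0, as for KDELR3, it can overstate them. Adjusted p-values are Benjamini-Hochberg values over all tested genes. Differences of the response between batches were tested as the batch by group interaction. For senescent against non-senescent cells, on simulated data with 200 of 13746 genes changed, 88.5% of the changed genes were called (68.4% at a log2 change of 0.8, 94.2% at 1.5 and 98.6% at 3) and 94.7% of calls were changed genes. Without changed genes 0 calls were made. No change smaller than 0.8 was simulated, while the median size among the trafficking genes was 0.27. The simulation also changed far fewer genes than passed the adjusted p in these data. Its percentages therefore do not cover changes of the size seen for most trafficking genes. The alternatives varied the pseudocount, filter, scaling, trend, batch term, replicate block, batches, single libraries and tool (edgeR 4.0.16 and DESeq2 1.42.0 on recovered reads).

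The genes, lists, pairs and motifs were chosen with earlier results of these data known. Named in full were the called genes, genes with a batch interaction and, of each role, up to 3 uncalled genes with the highest mean. Of the pathway lists, up to 5 called genes in each direction with a mean of at least 20 were named. Other genes with values, among them SEC24A, SEC24C, COPB1, COPB2, COPZ1, TMED2, TMED3 and TMED7, were added after their values were seen. Gene positions and exon numbers (canonical transcripts) came from GENCODE v44 on GRCh38 and promoter sequences from RefSeq.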

Additional observations from a re-analysis of the deposited data

Results flagged for a closer look

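The response to senescence differed between batches by the interaction test for MIA3, whose log2 fold change was greater by 0.61 in batch B, and for the golgin GOLGB1, greater by 0.97. In both genes the non-senescent level was lower in batch B. GOLGB1 was 1 of 4 pathway genes, among 74 tested, with an interaction adjusted p under 0.1. That is near the share of all tested genes (4.21%). The transcriptional regulator XBP1 changed direction, falling in batch A (log2 -0.46) but rising in batch B (0.47, interaction adjusted p 0.00216). The cargo helper SURF4 rose more in batch B (0.73 against 0.23, interaction adjusted p 0.0511). The ARF helper ARFGAP2 rose more in batch A (1.17 against 0.18, interaction adjusted p 0.0594). Among the senescent libraries, CREB3L2 was lowest in B2 at 104 normalised read counts, where the next library had 149. ARCN1 was highest in senescent B4 at 1429, where the next had 1249. These single libraries were picked out by their gap to the nearest value in 2 of 74 groups examined. Each group joined libraries of batches A and B, which differ in level, so the usual chance rate of about 5% does not apply. CREB3L2 without senescent B2 and ARCN1 without senescent B4 kept their direction.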

How the results depend on the processing

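The count of trafficking genes called higher, 4 in the comparison as reported, was 21 without the fold limit and 2 with same-total scaling, and leaving out 1 library gave 2 (without senescent B1) to 6. Called lower were 3 without the fold limit and 1 (TMED9) in batch A alone, and 0 whichever library was left out. The count of genes whose response differed between batches, 1 as reported, was 0 without the intensity trend and 0 to 3 with 1 library left out. Pathway genes called higher numbered 30 without the fold limit and 6 with same-total scaling, against 11, and those called lower 8 without the fold limit and 1 in batch A alone, against 3. The median log2 fold change moved to 0.10 with same-total scaling, and calls over all genes were then 36.9% higher instead of 49.6%. The counts of shifted pairs stayed at 3 to 6, with LMAN1 to LMAN2 lost when labels were permuted over all 12 samples (exact p 0.255) and ARF1 to ARF4 with the replicate block. SEC16B was added to the calls without the filter on low values. Over single genes, 960 alternative values gave 914 on the same side of the limits, 21 that lost and 25 that gained the call, and 0 counted as reversed. A change of sign in a gene that was not called did not count as reversed. Such changes occurred, for example for LMAN1 (log2 fold change from -0.17 to 0.27), GOSR1 (-0.27 to 0.07) and MCFD2 (-0.12 to 0.12). USO1 lost its call in batch A alone, and no called gene changed sign. Replicate numbers did not pair the samples: the correlation of same-numbered deviations ran from -0.05 to 0.02, and 0 of 6 numbers matched best with their own. With the replicate block 5 trafficking genes were called higher, KDELR3 being the added one, and 3 pairs were shifted. The shallower libraries of batch B limit low genes such as KDELR3, where 1 read was worth 1.05 to 1.51 normalised counts.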
